A study of Rattus norvegicus with 6 samples.

Results

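The genes described here are 10 lymphatic markers and lymphangiogenic factors, Prox1, Flt4, Vegfc, Vegfd, Ccl21, Mmrn1, Reln, Lyve1, Stab2 and Pdpn, out of 23802 genes in the deposited table. They were taken by gene symbol, and where a symbol had several rows the row with the highest mean count was to be used, but each symbol had a single row. The set was selected on earlier results of the same comparison of MCT with control lungs, so fold changes and adjusted p-values of these genes describe them and are no independent test. Lung RNA was compared between 3 samples from male wild-type Sprague-Dawley rats taken 4 weeks after a single 60 mg/kg injection of monocrotaline (MCT), a plant toxin that injures pulmonary vessels and is used to model pulmonary arterial hypertension, and 3 samples from male wild-type Sprague-Dawley rats injected with saline. The rats weighed 200 to 250 g. The labels give the MCT injection as intraperitoneal in one place and subcutaneous in another, and the saline injection as subcutaneous, so the route may have differed between the groups. Samples were whole lung, and the labels do not say whether each is a separate animal, so a p-value here covers only sample-to-sample spread, part of which may be technical.

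Lymphatic capillaries drain fluid and immune cells from tissue. Their endothelial cells arise from veins when the transcription factor PROX1 switches on the lymphatic programme, and they grow when VEGF-C or VEGF-D binds the receptor VEGFR-3, the product of Flt4. The grown vessels secrete CCL21, the chemokine that guides dendritic cells and T cells into lymph, and carry the hyaluronan receptor LYVE1 and the mucin-like protein podoplanin on their surface. In the lung, lymphatics run along the bronchovascular bundles and pleura, and several of these genes are also used by other lung cells, podoplanin most of all by the flat alveolar type 1 cell.

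Each library held between 13525886 and 17916115 counts, of which between 17674 and 17950 genes had at least 1. Levels of a single gene across samples are given in CPM, counts scaled to a fixed library size by the TMM method, and levels of different genes are set side by side only in FPKM, which is also per length. Within-group pairs gave 23.2 to 52.6 for chi-square over its degrees of freedom, more than counting error alone gives. No library was therefore another of its group sequenced again. Whether libraries of a group share an animal cannot be told from this, since separate preparations would also differ by more than counting error. A gene was called at an adjusted p under 0.05 in edgeR's quasi-likelihood test with Benjamini-Hochberg adjustment over 15250 tested genes, and adjusted p-values below are from this test. Of the 10 genes, 9 were tested, each with at least 13 counts in every library, and Stab2 was too low to test.

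Of the 9 tested genes, 6 were higher in MCT lungs, where 8.01% of all tested genes were higher. Ccl21, Reln, Prox1, Mmrn1, Vegfd and Flt4 made up this set, and their changes ran from 9.37-fold for Ccl21 to 1.68-fold for Flt4. Lyve1 was lower, where 5.11% of all tested genes were lower. Vegfc and Pdpn were not called. All 3 MCT lungs lay above all 3 control lungs in 7 of the 9 genes and below them in 1, shares that were 18.4% and 17% over all tested genes, or 35.4% either way. The median log2 fold change of the 9 genes was 1.67, against -0.013 over all tested genes. In whole-lung RNA, more lymphatic endothelial cells and more RNA per cell cannot be told apart.

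**Figure D1:**
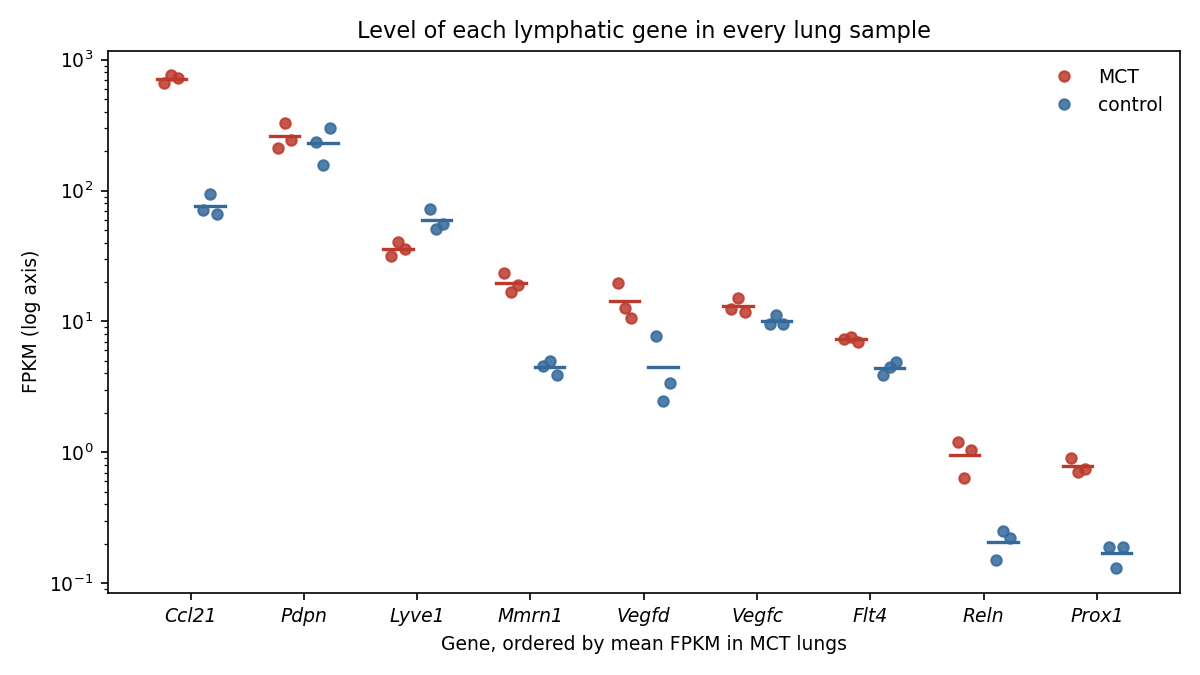
FPKM (log axis) of 9 lymphatic genes in each lung sample, ordered by their mean in MCT lungs. Points are single samples, horizontal bars are group means, MCT is drawn left of control, and Stab2, at or near 0 in every sample, is left out. Ccl21 stood at 664 to 758 FPKM in MCT lungs and 66.6 to 93.4 FPKM in control lungs, while the Pdpn points overlap.

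The order of the genes by level differed between the groups. In MCT lungs Ccl21 was the most abundant of the 10, at 716 ± 48 FPKM (SD, n = 3), followed by Pdpn at 262 ± 60 FPKM and Lyve1 at 35.9 ± 4.73 FPKM. In control lungs Pdpn came first at 232 ± 72.5 FPKM, followed by Ccl21 at 76.8 ± 14.5 FPKM and Lyve1 at 59.5 ± 11.1 FPKM (SD, n = 3), and the ranges of Ccl21 and Lyve1 overlapped there. Mmrn1, Vegfd, Vegfc and Flt4 held the middle, between 7.32 and 19.7 FPKM on average in MCT lungs and between 4.40 and 10.1 FPKM in control lungs. Within that middle, Mmrn1 overlapped Vegfd and Vegfd overlapped Vegfc in MCT lungs, and Vegfd, Mmrn1 and Flt4 overlapped in turn in control lungs. Reln and Prox1 were the lowest of the tested genes in both groups, at 0.96 and 0.787 FPKM in MCT lungs and 0.207 and 0.17 FPKM in control lungs, and their ranges overlapped in each group.

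The promoters of 5 of the genes are shown, as the bases just before their start sites, because Ccl21, Mmrn1 and Flt4 were higher in the same lungs while of the ligand genes, whose products act on the same receptor, Vegfd was called and Vegfc was not. The sequences are the 250 bases before the annotated start, from RefSeq on build GRCr8, 5′ to 3′ on the gene's strand. The counts were made on Rnor_6.0. Capitals mark matches, on either strand, to the core bound by ETS factors (GGAAG), a core bound by SOX factors (ACAAAG) and the TATA box.
Ccl21, chr5:61777516-61777765, minus strand: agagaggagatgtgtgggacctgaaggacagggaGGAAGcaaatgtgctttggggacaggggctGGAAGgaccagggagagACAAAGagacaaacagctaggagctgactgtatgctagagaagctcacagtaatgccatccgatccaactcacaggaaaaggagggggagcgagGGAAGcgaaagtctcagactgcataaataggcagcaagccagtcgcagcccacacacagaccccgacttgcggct
Mmrn1, chr4:91233166-91233415, plus strand: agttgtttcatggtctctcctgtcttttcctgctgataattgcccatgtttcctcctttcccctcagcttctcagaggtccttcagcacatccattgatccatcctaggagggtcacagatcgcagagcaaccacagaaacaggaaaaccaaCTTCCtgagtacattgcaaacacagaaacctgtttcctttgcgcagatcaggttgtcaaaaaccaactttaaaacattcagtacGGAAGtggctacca
Flt4, chr10:34414584-34414833, plus strand: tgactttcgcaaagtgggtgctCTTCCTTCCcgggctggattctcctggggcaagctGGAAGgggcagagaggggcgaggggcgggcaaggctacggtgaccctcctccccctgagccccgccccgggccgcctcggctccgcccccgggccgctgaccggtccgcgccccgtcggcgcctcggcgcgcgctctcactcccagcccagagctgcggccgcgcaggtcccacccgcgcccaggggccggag
Vegfc, chr16:44560888-44561137, minus strand: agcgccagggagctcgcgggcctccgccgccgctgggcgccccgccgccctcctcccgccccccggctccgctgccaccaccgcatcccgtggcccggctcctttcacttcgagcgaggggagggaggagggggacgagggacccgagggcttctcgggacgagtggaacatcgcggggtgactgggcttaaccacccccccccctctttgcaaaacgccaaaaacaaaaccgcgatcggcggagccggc
Vegfd, chrX:33739893-33740142, minus strand: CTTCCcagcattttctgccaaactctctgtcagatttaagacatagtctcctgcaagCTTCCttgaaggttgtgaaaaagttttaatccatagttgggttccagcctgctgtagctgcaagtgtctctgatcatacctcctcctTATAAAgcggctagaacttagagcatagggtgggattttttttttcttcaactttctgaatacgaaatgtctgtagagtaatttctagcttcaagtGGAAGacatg

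Promoters were found for 9 of the 10 genes, and none was found for Prox1. A GGAAG match on either strand stood in 6 of the 9, those of Ccl21, Flt4, Mmrn1, Lyve1, Stab2 and Vegfd, where 63.3% of 33465 promoters of the same length hold one. Ccl21, Flt4 and Vegfd had 3 such matches each, and the promoters of Vegfc, Reln and Pdpn had 0. ACAAAG or its reverse complement CTTTGT was found upstream of Ccl21 and Pdpn, against 16.3% of all promoters. TATAAA or TTTATA was found in Vegfd alone, where its first base lies 106 bases before the start, against 12.9% of all promoters. The forkhead core GTAAACA or TGTTTAC and an NF-kB motif were in none of the 9, against 3.22% and 1.3% of all promoters. The ligand promoters differed in base composition, with 29 CpG dinucleotides upstream of Vegfc, more than in 94% of promoters, and 2 upstream of Vegfd. Reln and Flt4 resembled Vegfc in this, with 41 and 28, while Ccl21 had 6, Mmrn1 3 and Lyve1 2, near or below the median of 5. These matches describe letters and not bound sites.

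Prox1, the transcription factor that sets and holds lymphatic identity, was scarce in every lung and 4.56-fold higher in MCT lungs. It stood at 6.44, 5.22 and 5.46 CPM in MCT replicates 1 to 3 and at 1.40, 0.968 and 1.35 CPM in control replicates 1 to 3. These levels rest on 78 to 95 counts per MCT library and 13 to 25 per control library. The lowest MCT lung was 3.73 times the highest control lung. This is 2.19 on the log2 scale (SE 0.28, adjusted p = 0.00313). Prox1 is also made by heart muscle and neuroendocrine cells. The summed cardiac muscle markers, 10 of 10 in the table, stood at 32.2 to 66.8 CPM in MCT lungs and 27.3 to 55.6 CPM in control lungs. Nppa was at 0 in every library and 0 of the 6 tested markers were called. Actc1, the highest of them, was at 31.4 ± 15 CPM in MCT lungs and 17.7 ± 6.07 CPM in control lungs (SD, n = 3, adjusted p = 0.205). Its call appeared without MCT replicate 2 (adjusted p = 0.0255). Pln, the tested marker with the smallest p, was at 13.3 ± 3.33 CPM in MCT lungs and 6.36 ± 2.45 CPM in control lungs (SD, n = 3, adjusted p = 0.0565). It was called higher without MCT replicate 2 or control replicate 3 (adjusted p = 0.0392 and 0.041). The call also appeared with DESeq2, with a replicate block and without the filter on low counts. Myh6 and Myl7, not tested, reached 6.90 and 4.53 CPM in control replicate 3 and at most 0.271 and 0.237 CPM in an MCT lung. Of the 10 neuroendocrine markers 9 were in the table and 3 could be tested, with sums of 4.45 to 9.67 CPM in MCT lungs and 2.48 to 4.02 CPM in control lungs, ranges that did not overlap. Of these 3, 1 was higher, Uchl1, at 2.46 ± 1.42 CPM in MCT lungs and 0.594 ± 0.112 CPM in control lungs (SD, n = 3, adjusted p = 0.0485), a call lost at adjusted p-values of 0.118 to 0.147 when any sample but MCT replicate 2 was dropped. Of their defining genes, Chga averaged 0.238 CPM in MCT lungs and 0.112 CPM in control lungs. The part of these cells in the Prox1 change was not tested.

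Flt4, the receptor of VEGF-C and VEGF-D, rose least among the called genes. It stood at 41.9, 44.3 and 39.9 CPM in MCT replicates 1 to 3 and at 22.6, 25.7 and 27.0 CPM in control replicates 1 to 3. The groups did not overlap, and the spread within each was small. On the log2 scale the change was 0.74 (SE 0.13, adjusted p = 0.00898). Flt4 is also made by part of the blood endothelium, whose main VEGF receptor gene, Kdr, was at 219 ± 92.4 CPM in MCT lungs and 328 ± 51.8 CPM in control lungs (SD, n = 3) and was not called (adjusted p = 0.208). Within each library the ratio of Flt4 to Kdr, in FPKM, was 0.332, 0.147 and 0.201 in MCT replicates 1 to 3 and 0.0883, 0.0771 and 0.0775 in control replicates 1 to 3. All 3 MCT ratios lay above the controls, with an exact two-sided permutation p of 0.1, the smallest that 3 against 3 samples can give. Nrp2, the coreceptor that lymphatic endothelium uses for VEGF-C, was at 124 ± 9.92 CPM in MCT lungs and 119 ± 11.5 CPM in control lungs (adjusted p = 0.781), and was named after its values were seen.

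Of the ligand genes of this receptor, Vegfd was called higher and Vegfc was not called. Vegfd stood at 57.8, 37.6 and 31.4 CPM in MCT replicates 1 to 3 and at 23.1, 7.30 and 9.54 CPM in control replicates 1 to 3. The groups did not overlap, although the lowest MCT lung was only 1.36 times the highest control lung. The change on the log2 scale was 1.67 (SE 0.41, adjusted p = 0.0336). Dropping MCT replicate 1 or 3, or control replicate 2 or 3, ended this call at adjusted p-values of 0.0521 to 0.121, and without control replicate 1 the log2 value was 2.32. Vegfc, which drives the sprouting of lymphatics from veins in the embryo, stood at 26.2, 32.5 and 25.2 CPM in MCT replicates 1 to 3 and at 20.6, 24.1 and 19.6 CPM in control replicates 1 to 3. The MCT values lay above the control values, the closest pair by a factor of 1.05, but the log2 fold change of 0.39 (SE 0.16) was not called (adjusted p = 0.136).

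The ratio of Vegfd to Vegfc in FPKM was 1.59, 0.836 and 0.902 in MCT replicates 1 to 3 and 0.812, 0.219 and 0.353 in control replicates 1 to 3. Every MCT ratio was above every control ratio, although control replicate 1 lay just under MCT replicate 2, with an exact two-sided permutation p of 0.1, the smallest possible. Fibroblasts and mesothelium can make Vegfd. Of 12 fibroblast markers tested, 2 rose, 2 fell and 8 were not called, and their sum was 1731 to 1812 CPM in MCT lungs and 1503 to 1618 CPM in control lungs. The mesothelium markers were lower, with 5 of 7 tested called lower and 0 higher. Their sums were 327 to 356 CPM in MCT lungs and 456 to 512 CPM in control lungs. Most of each sum was Krt19, at 312 ± 16.6 CPM in MCT lungs and 356 ± 31 CPM in control lungs (SD, n = 3), which was not called (adjusted p = 0.346). The 5 called markers fell 19.4-fold (Upk3b), 10.2-fold (Upk1b), 6.71-fold (Lrrn4), 4.32-fold (Msln) and 2.11-fold (Rspo1). Their part in the Vegfd values was not tested.

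Ccl21, the chemokine that lymphatic vessels secrete to draw in cells carrying the receptor CCR7, had the largest change of the 10 genes. It stood at 552, 642 and 609 CPM in MCT replicates 1 to 3 and at 60.2, 78.6 and 53.8 CPM in control replicates 1 to 3. The lowest MCT lung was 7.02 times the highest control lung. The difference was 9.37-fold, or 3.23 on the log2 scale (SE 0.18, adjusted p = 0.000279), and the rise was the 74th largest among the tested genes. Within each library the ratio of Ccl21 to Prox1, in FPKM, was 729, 1053 and 955 in MCT replicates 1 to 3 and 353, 667 and 333 in control replicates 1 to 3. The ratios of the 3 MCT lungs all lay above those of the control lungs (exact two-sided permutation p = 0.1, the smallest possible), with the highest control ratio close to the lowest MCT ratio. The mouse carries near-identical copies of this gene, and how reads that map to more than 1 place were handled here is not given in the sources used.

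Mmrn1 and Reln, which code for secreted glycoproteins, rose about as much as Prox1. Mmrn1, the gene of multimerin 1, a protein stored in platelets and made by endothelium, stood at 107, 78.8 and 87.8 CPM in MCT replicates 1 to 3 and at 21.6, 23.3 and 17.2 CPM in control replicates 1 to 3. Its log2 fold change was 2.14 (SE 0.17, adjusted p = 0.000593), and the lowest MCT lung was 3.38 times the highest control lung. Of 6 tested platelet and megakaryocyte markers 0 were called. The sum of the 9 in the table was 13.9 to 21.5 CPM in MCT lungs and 16.4 to 27.0 CPM in control lungs, ranges that overlapped. Pf4 was at 5.51 ± 0.338 CPM in MCT lungs and 2.81 ± 0.878 CPM in control lungs (SD, n = 3, adjusted p = 0.0597). It was called higher without control replicate 1 (adjusted p = 0.0355), and with DESeq2, limma-voom or FPKM values. Itga2b was 1.80-fold lower (adjusted p = 0.105), and called without MCT replicate 2 (adjusted p = 0.029). The part of platelets in the Mmrn1 values was not tested. Reln, the gene of reelin, a large extracellular protein known from neuron positioning and also released by lymphatic endothelium, stood at 13.3, 7.17 and 11.6 CPM in MCT replicates 1 to 3 and at 1.66, 2.83 and 2.32 CPM in control replicates 1 to 3. Its log2 fold change was 2.23 (SE 0.32, adjusted p = 0.00445). The groups did not overlap, and MCT replicate 2, the lowest of its group, was 2.53 times the highest control. Of 4 reelin receptor and adaptor genes tested, 1 rose and 0 fell. This was Dab2, an endocytic adaptor, at 1.45-fold (adjusted p = 0.0208), a call lost at adjusted p-values of 0.0532 to 0.0748 when MCT replicate 1 or 3, or control replicate 2 or 3, was dropped.

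**Figure D2:**
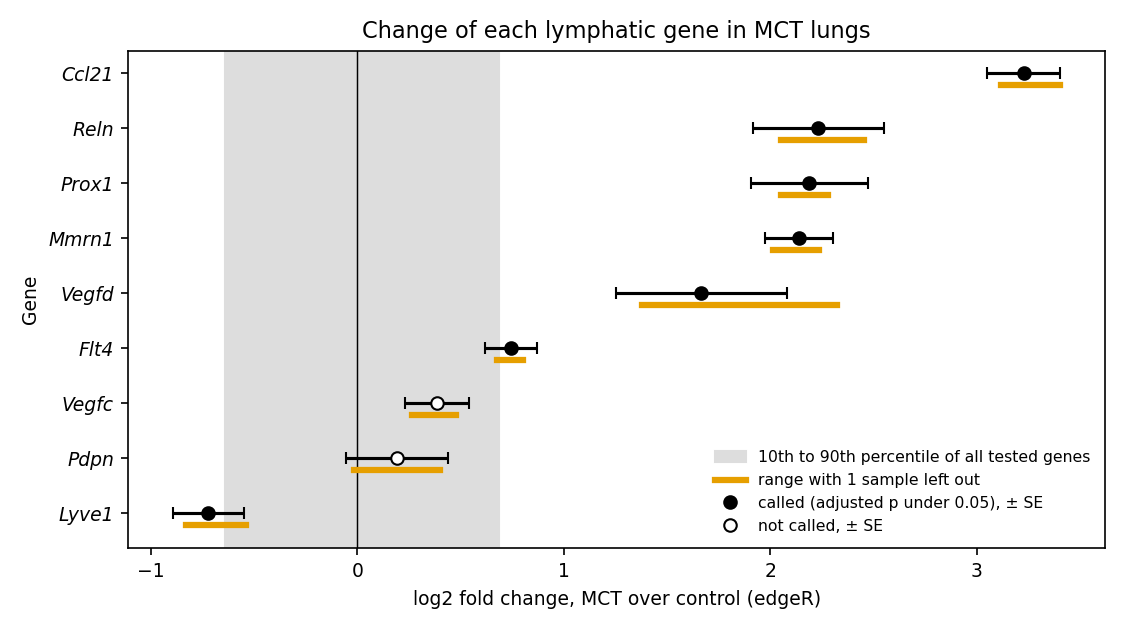
The log2 fold change, MCT over control, of each tested gene with its SE (black bars), filled where called and open where not. Orange bars span the values with 1 sample left out and the grey band holds the 10th to 90th percentile of all tested genes, -0.64 to 0.69. Ccl21 stands farthest right at 3.23, Lyve1 is left of the band at -0.72, and Vegfc and Pdpn lie inside it.

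Lyve1, the hyaluronan receptor of lymphatic capillaries, went the other way from Prox1. It stood at 96.1, 127 and 110 CPM in MCT replicates 1 to 3 and at 226, 158 and 166 CPM in control replicates 1 to 3, with no overlap. On the log2 scale the change was -0.72 (SE 0.17, adjusted p = 0.0291). The call ended when MCT replicate 1 or 3, or any control, was dropped, at adjusted p-values of 0.0515 to 0.0938. The ratio of Lyve1 to Prox1 in FPKM was 34.4, 56.6 and 46.9 in MCT replicates 1 to 3. In control replicates 1 to 3 it was 360, 362 and 280. All MCT ratios lay below all control ratios (exact two-sided permutation p = 0.1, the smallest possible). This had to be so, since every MCT lung was lower in Lyve1 and higher in Prox1 than every control lung. Macrophages of the lung interstitium can also carry LYVE1. Of 10 tested macrophage markers 7 rose, from 2.21-fold for Mrc1 to 8.06-fold for Folr2, and 1 fell. Their sum was 1645 to 1945 CPM in MCT lungs and 1395 to 1441 CPM in control lungs. Gas6, the marker that fell, made up most of the control sums. It was at 591 ± 94.2 CPM in MCT lungs and 915 ± 69.7 CPM in control lungs (SD, n = 3, adjusted p = 0.0362). That call was lost at adjusted p-values of 0.0529 to 0.127 when any sample but MCT replicate 2 was dropped. Folr2, which often marks the same macrophages, rose 8.06-fold to 30.8 ± 11.9 CPM in MCT lungs, against 3.81 ± 0.447 CPM in control lungs (SD, n = 3, adjusted p = 0.000992). The part of macrophages in the Lyve1 values was not tested.

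Stab2, a scavenger receptor for hyaluronan found on sinusoidal endothelium of liver, spleen and lymph node, was all but absent from these libraries. It had 1 count among 46097904 in MCT lungs and 0 among 46778700 in control lungs. A floor of 3 counts over a group corresponds to 0.0654 CPM in MCT lungs and 0.0638 CPM in control lungs, and covers counting error only. Its paralog Stab1, made by macrophages and by some endothelium, was at 172, 111 and 124 CPM in MCT replicates 1 to 3 and at 39.0, 30.9 and 22.6 CPM in control replicates 1 to 3. Stab1 rose 4.4-fold (adjusted p = 0.00163).

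Pdpn was abundant and not called. It stood at 392, 617 and 454 CPM in MCT replicates 1 to 3 and at 447, 295 and 542 CPM in control replicates 1 to 3, so the groups overlapped widely. Its change was 0.19 on the log2 scale (SE 0.25, adjusted p = 0.656), and turned to -0.016 without MCT replicate 2 or control replicate 2. Alveolar type 1 markers, all 10 in the table, summed to 4449, 8108 and 5495 CPM in MCT replicates 1 to 3 and to 7960, 6921 and 8607 CPM in control replicates 1 to 3. In each group the sample with the highest Pdpn had the highest sum of these markers, and the sample with the lowest Pdpn had the lowest sum. This order was not particular to type 1 markers in MCT lungs. There the blood and pan-endothelial sums (2867, 4815 and 3404 CPM in replicates 1 to 3) had it too. In control lungs those sums (5074, 5098 and 4700 CPM in replicates 1 to 3) had the reverse order. Of the 10 markers 1 fell, Rtkn2 (adjusted p = 0.0491), and that call was lost at adjusted p-values of 0.0535 to 0.143 when MCT replicate 1 or 3, or any control, was dropped. The part of type 1 cells in the Pdpn values was not tested.

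Pan-endothelial genes, which blood and lymphatic endothelium share, did not rise with the lymphatic genes. Of 14 tested blood and pan-endothelial markers 5 fell and 0 rose, with a median log2 fold change of -0.41, and with 1 sample left out between 2 and 7 fell. Their sums were 2867 to 4815 CPM in MCT lungs and 4700 to 5098 CPM in control lungs. Relative to 5 pan-endothelial genes (Cdh5, Erg, Egfl7, Esam and Tie1) in the same library, Ccl21 was higher by 3.72, Prox1 by 2.64, Reln by 2.63, Mmrn1 by 2.61, Vegfd by 2.27 and Flt4 by 1.22 on the log2 scale of FPKM. On this scale Vegfc was higher by 0.85 and Pdpn by 0.68, and in all 8 genes the MCT lungs lay above the control lungs, with an exact two-sided permutation p of 0.1 for each, the smallest possible. Over all tested genes on this scale, the MCT lungs lay above the control lungs in 44% and below them in 3.29%, so lying above is common here and sets no gene apart. Of the 5 genes used as the base, Cdh5 and Erg were themselves lower in MCT lungs (adjusted p = 0.0396 and 0.0246), calls lost at adjusted p-values of 0.0512 to 0.131 when any sample but MCT replicate 2 was dropped. Lyve1 on this scale overlapped, at -0.87 ± 0.081 in MCT lungs and -0.63 ± 0.28 in control lungs (SD, n = 3, exact two-sided permutation p = 0.2).

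**Figure D3:**
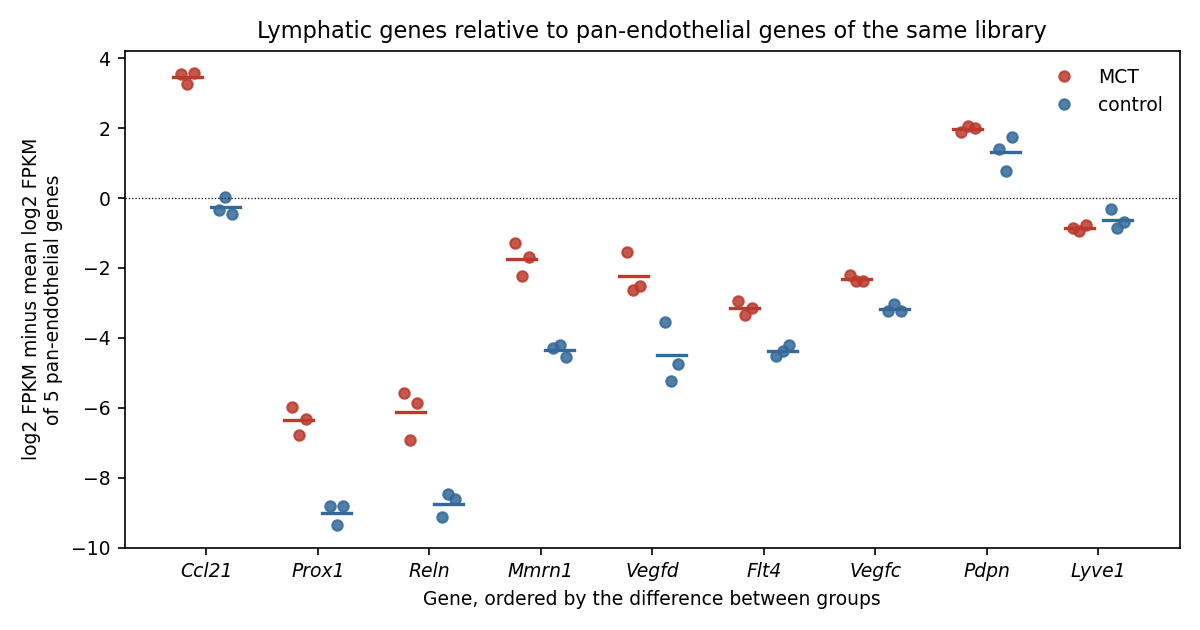
Each gene's log2 FPKM minus the mean log2 FPKM of 5 pan-endothelial genes in the same library, by sample, with MCT left of control and horizontal bars at group means. Ccl21 lies at 3.27 to 3.57 in MCT lungs and at -0.44 to 0.02 in control lungs, and only the Lyve1 points overlap between the groups.

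Other genes of the lymphatic programme changed in both directions, and the counts of each list stand against 8.01% higher and 5.11% lower over all tested genes. Of 12 transcription factors tied to lymphatic or venous endothelium, 2 rose, 1 fell and 9 were not called, with a median log2 fold change of -0.034. Maf, which macrophages also make, rose 2.08-fold (adjusted p = 0.0334), and Gata2, needed for lymphatic valves and also made by blood endothelium and mast cells, fell 1.88-fold (adjusted p = 0.0213). Neither of these calls held with every sample in turn left out: that of Maf ended without MCT replicate 1 or any control, and that of Gata2 without MCT replicate 1 or 3, or control replicate 2, at adjusted p-values of 0.0669 to 0.107. Sox18, the factor that switches on Prox1 in the embryo, was at 131 ± 26.1 CPM in MCT lungs and 173 ± 13.2 CPM in control lungs (SD, n = 3, adjusted p = 0.139), and was named after its values were seen.

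Among 21 tested genes of lymphatic endothelium and its valves, 5 rose, 3 fell and 13 were not called, with a median log2 fold change of 0.12. With 1 sample left out, 1 to 5 rose and 1 to 4 fell. Ackr2, the decoy receptor with which lymphatic vessels clear inflammatory chemokines, stood at 4.88, 3.32 and 3.29 CPM in MCT replicates 1 to 3 and at 0.532, 0.298 and 0.539 CPM in control replicates 1 to 3. Its 8.15-fold rise (adjusted p = 0.00284) rests on low levels, and the groups were far apart. Thy1 rose 4.98-fold and Svep1, a matrix protein needed for lymphatic remodelling, 2.26-fold (adjusted p = 0.0111 and 0.0133), and both calls ended without control replicate 2 or 3 (adjusted p = 0.052 to 0.0606). Gpr182, an atypical receptor of sinusoidal and lymphatic endothelium, fell 3.29-fold, with 27.5, 37.3 and 24.4 CPM in MCT replicates 1 to 3 and 114, 83.5 and 96.1 CPM in control replicates 1 to 3 (adjusted p = 0.00162). Dchs1, a cadherin of lymphatic valves, fell 1.6-fold (adjusted p = 0.0181), a call lost at adjusted p-values of 0.0597 to 0.0737 when MCT replicate 3, or control replicate 2 or 3, was dropped. Lama5 was not called, at 270 ± 25.5 CPM in MCT lungs and 255 ± 31.3 CPM in control lungs (SD, n = 3, adjusted p = 0.734).

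The genes that receive or clear CCL21 did not follow it. Ackr4, the atypical receptor that takes up and degrades CCL21 and CCL19, stood at 2.58, 2.55 and 2.31 CPM in MCT replicates 1 to 3 and at 22.2, 13.1 and 20.2 CPM in control replicates 1 to 3. It fell 7.44-fold with a log2 fold change of -2.90 (SE 0.25, adjusted p = 0.000745). Ccr7, the signalling receptor on T cells and mature dendritic cells, was at 10.2 ± 3 CPM in MCT lungs and 16.1 ± 4.66 CPM in control lungs (SD, n = 3), and Ccl19, the other ligand of CCR7, was at 6.23 ± 2.34 CPM in MCT lungs and 5.51 ± 0.267 CPM in control lungs. Neither was called (adjusted p = 0.17 and 0.752), and both were named after their values were seen. Of the 12 tested genes of this list 1 rose, 2 fell and 9 were not called. Cr2, a complement receptor of B cells and follicular dendritic cells, fell 2.2-fold (adjusted p = 0.0055). Tnfrsf11a rose 2.22-fold (adjusted p = 0.0198), a call lost at adjusted p-values of 0.0518 to 0.0613 when MCT replicate 1 or 3, or control replicate 2 or 3, was dropped. Of 9 B and plasma cell markers tested 2 rose and 4 fell, with sums of 129 to 159 CPM in MCT lungs and 109 to 194 CPM in control lungs, and of 10 T cell markers 0 rose and 1 fell, with sums of 79.1 to 117 CPM in MCT lungs and 105 to 162 CPM in control lungs. These ranges overlapped, and with 1 sample left out 1 to 5 of the B and plasma cell markers and 0 to 6 of the T cell markers were lower. The part of lymphoid cells or tissue in the Ccl21 values was not tested.

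Hyaluronan genes, which make, cut or bind the ligand of LYVE1, had 5 of 14 tested members higher, 0 lower and 9 not called, with a median log2 fold change of 0.45. With 1 sample left out, between 2 and 6 were higher. Cemip, a hyaluronan-degrading protein, rose 6.07-fold to 45.3 ± 19.1 CPM in MCT lungs, against 7.43 ± 0.922 CPM in control lungs (SD, n = 3, adjusted p = 0.00223), and Stab1 is given above. Vcan rose 5.16-fold, Hmmr 4.16-fold and Tnfaip6 3.07-fold (adjusted p = 0.0163, 0.0143 and 0.0196). Their calls ended without control replicate 3, those of Vcan and Tnfaip6 also without control replicate 2, and that of Tnfaip6 without MCT replicate 1 or 3 (adjusted p = 0.0588 to 0.0803). Without MCT replicate 1 the log2 fold change of Vcan was 1.75. Hyal2, the most abundant of these genes, was not called (adjusted p = 0.742). Hmmr also rises in dividing cells, and Stab1, Vcan and Tnfaip6 are made by macrophages or fibroblasts as well.

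Genes that process VEGF-C or signal beside it were mixed, with 4 of 25 tested higher, 5 lower and 16 not called and a median log2 fold change of -0.42, against 8.01% higher and 5.11% lower over all tested genes. With 1 sample left out, 1 to 3 were higher and 3 to 10 lower. The genes that fell most were Tek, 5.19-fold (adjusted p = 0.00246), Calcrl, the adrenomedullin receptor needed by lymphatic endothelium, 4.32-fold (adjusted p = 0.00112), and Efnb2, an ephrin of arteries and lymphatic valves, 3.82-fold (adjusted p = 0.000593), all of them abundant in blood endothelium. Igf1 rose 3.49-fold (adjusted p = 0.0025) and Pgf 3.03-fold (adjusted p = 0.0162), and the call of Pgf ended without control replicate 2 or 3 (adjusted p = 0.0659 and 0.0506). Vegfa was at 987 ± 298 CPM in MCT lungs and 1426 ± 80.8 CPM in control lungs (SD, n = 3) and was not called (adjusted p = 0.151), but was called without MCT replicate 2 (adjusted p = 0.0427). Adamts3, the protease that activates VEGF-C, was too low to test, at 0.679 ± 0.435 CPM in MCT lungs and 0.33 ± 0.18 CPM in control lungs. Of 7 partners of podoplanin 2 fell and 0 rose. These were Clec1b, the platelet receptor that podoplanin binds to keep blood and lymph apart, at 2.27-fold lower, and Rdx, at 1.76-fold lower (adjusted p = 0.0262 and 0.0168). Clec1b lost its call when MCT replicate 1 or 3, or any control, was dropped, and Rdx when replicate 3 of either group was, at adjusted p-values of 0.0558 to 0.0979, and Msn was not called (adjusted p = 0.347).

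**Figure D4:**
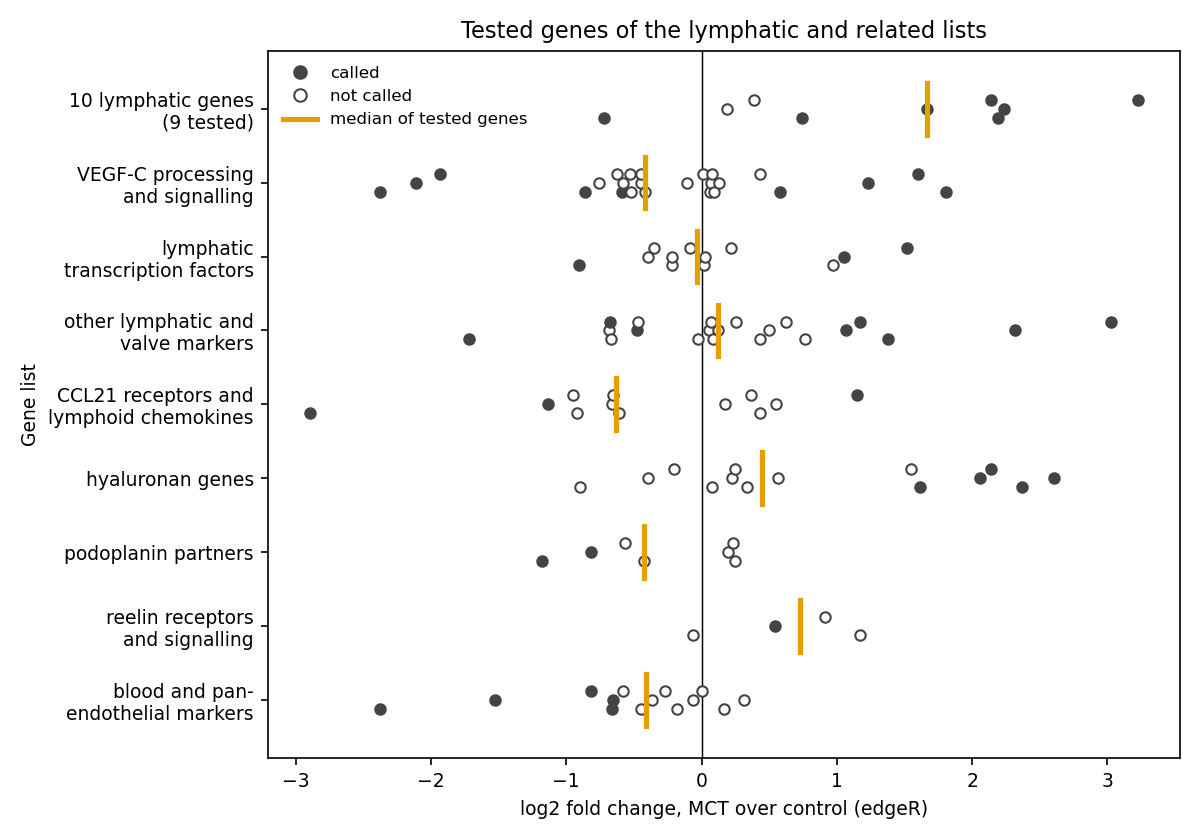
The log2 fold change, MCT over control, of every tested gene in the lymphatic set and 8 related lists, 1 point per gene, filled where called, with an orange bar at the list's median. The median is 1.67 for the 9 tested lymphatic genes and lies between -0.63 and 0.73 in the related lists.

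Across the 6 libraries, the genes whose log2 CPM followed Prox1 most closely were Dpp3, Mdm2, Slc40a1, Cdca8 and Ttk, with Pearson correlations of 0.9964 to 0.9991 among 11147 genes with a symbol and a mean of at least 5 CPM. Over these libraries 8.72% of those genes had a correlation above 0.9, and the points share the split into the groups compared. Among the lymphatic genes the correlation with Prox1 was 0.97 for Mmrn1, 0.96 for Ccl21, 0.95 for Flt4, 0.93 for Reln, 0.90 for Vegfd, 0.71 for Vegfc, 0.36 for Pdpn and -0.84 for Lyve1.

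**Figure D5:**
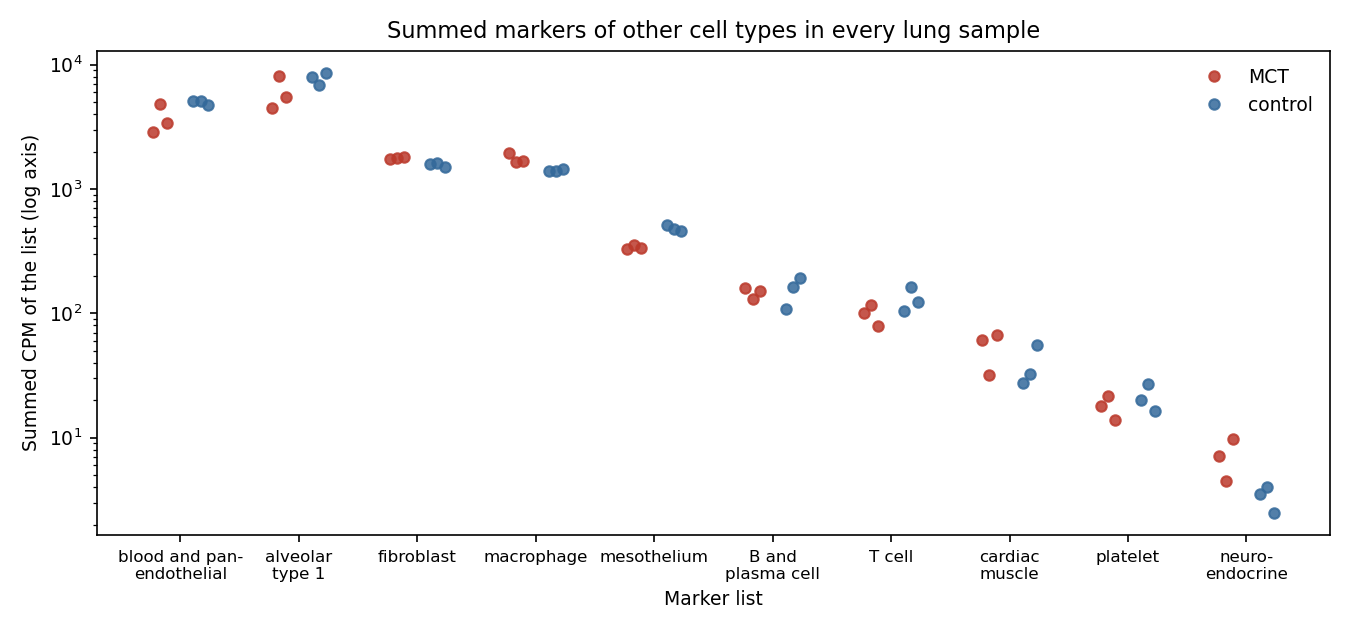
Summed CPM (log axis) of marker lists of other cell types in each sample, with MCT left of control. Macrophage sums lie at 1645 to 1945 in MCT lungs and 1395 to 1441 in control lungs, mesothelium sums lie lower in MCT lungs, and the platelet and cardiac sums overlap. Mesothelium sums are mostly Krt19, which was not called, and control macrophage sums are mostly Gas6, which fell.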

How the data were processed

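PolyA RNA of whole lung was sequenced in 3 MCT and 3 control samples, grouped and numbered by their titles. Per the file headers and values, the authors deposited an estimated count and an FPKM value per gene and sample. Bowtie2, TopHat2 2.0.3.12 and build Rnor_6.0 appear in the submitters' processing notes. How reads were assigned to genes, by strand or at several positions, is not given in the sources used, so antisense or overlapping reads may be included. Between 90.7% and 91.5% of the deposited counts above 0 were whole, and all were rounded. The tests had been chosen for raw counts.

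Genes were kept by filterByExpr (minimum count 10, minimum total 15) and tested with edgeR 4.0.16 in R 4.3.3, quasi-likelihood, TMM, MCT over control, without covariates. SE is the size of the log2 fold change divided by the square root of F. The test was checked on simulated data. Ratios within a library used FPKM plus 0.01. Alternatives were DESeq2 1.42.0, limma-voom (limma 3.58.1), other scalings, filters and units, a replicate block, and each sample left out.

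The genes and lists were chosen with earlier results of these data known. From each list the text names up to 5 called genes with the smallest p and the gene with the highest mean CPM, a rank that is not per length, and also the 5 genes whose log2 CPM correlated best with Prox1. Other genes were named after their values were seen. Of 208 list symbols, 198 were in the table and 176 were tested. Most of them enter the counts without being reported by name. No molecular identifiers are named, so floors based on counts cover counting error only.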

Additional observations from a re-analysis of the deposited data

How the results depend on the processing

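Each of the 9 tested genes was recomputed under 15 alternatives. Ccl21, Prox1, Flt4, Mmrn1 and Reln were called higher in every one, and Vegfc and Pdpn were called in none. The log2 fold change of Ccl21 reached 3.40 and that of Flt4 lay between 0.63 and 0.80. Prox1 and Reln fell to 0.61 and 0.69 on the log2(FPKM + 1) scale, because the added 1 is above their mean levels, and were otherwise between 1.72 and 2.45. Lyve1 and Vegfd lost their calls in 6 and 4 alternatives and kept their direction, between -0.83 and -0.54 for Lyve1 and between 1.38 and 2.32 for Vegfd. Pdpn turned to -0.016 without MCT replicate 2 and to -0.016 without control replicate 2, and lay at most at 0.40, without control replicate 3. With 1 sample left out, between 5 and 6 of the genes were called higher and between 0 and 1 lower.

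Over all genes, leaving out 1 sample gave 481 to 1394 higher and 212 to 978 lower, against 1221 and 779 with all samples. DESeq2 called 1601 higher and 1182 lower. Same-numbered samples of the groups did not deviate together over all genes (correlations of -0.070 to -0.0024). A correlation over all genes cannot exclude a pairing that touches only some of them, so whether the numbers pair the samples is not known. With the replicate block 917 genes were higher and 546 lower, and the lymphatic genes called lower were 0, since Lyve1 had an adjusted p of 0.0692. Vegfd had an SE of 0.22 and an adjusted p of 0.00746 with the block, against 0.41 and 0.0336 without it. With a pseudocount of 0.1 FPKM the pan-endothelial difference of Prox1 was 2.20 and the log2 ratio of Lyve1 to Prox1 differed by -2.44, against 2.64 and -2.88, because Prox1 lies near that pseudocount. With 1 sample left out the differences relative to pan-endothelial genes kept their sign. The ratio of Stab2 to Lyve1 was not computed, since Stab2 had 1 count. Prox1 rests on 13 counts in its lowest library.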
